A study of Mus musculus with 6 samples.

Results

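The genes described here serve antigen presentation by MHC class II molecules, and they were read in dendritic cells (DCs) sorted from ID8 tumours, a transplanted mouse model of ovarian cancer that fills the peritoneal cavity with ascites. A fixed list of 9 symbols defined them: the invariant chain Cd74, the chains H2-Aa, H2-Ab1 and H2-Eb1, the peptide editors H2-DMa, H2-DMb1 and H2-Oa, the transactivator Ciita and the lysosomal reductase Ifi30. Of these 9 genes, 8 matched a row of the count table of 23225 genes, and all 8 were among the 15958 genes tested. H2-DMb1 was not analysed here. March1, which the rule for the list mentions but does not include as a symbol, is given with the other genes of the pathway.

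The samples were 3 RNA-seq libraries of wild-type mice (WT) and 3 of mice lacking XBP1 in CD11c-positive cells (XBP1-KO), all of C57BL/6 background and taken at day 23 of tumour growth. The labels name ascites as the source and the tumour as the tissue. XBP1 is a transcription factor of the endoplasmic reticulum stress response. The sources used here do not give the promoter that drove the deletion, the ages of the mice, the sort gate, any pooling of animals, or whether the WT mice carried part of the deletion system. The labels do not tie the 3 samples of a genotype to different animals or cultures. Each p-value therefore reflects only how far these samples scatter, which may be technical. The columns name only the genotype, so the libraries are called a, b and c, and these letters pair nothing across genotypes.

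MHC class II molecules display peptides from endosomes and lysosomes to CD4+ T cells, and DCs are the cells best known for starting such responses. An alpha and a beta chain assemble in the endoplasmic reticulum on the invariant chain CD74, which blocks the peptide groove and steers the complex to endosomes. Proteases there cut CD74 down to a fragment, the editor DM exchanges that fragment for peptide, and DO restrains DM. CIITA does not bind DNA itself: it docks on factors at the X and Y boxes upstream of class II, Cd74 and DM genes and switches them on together.

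The bases just upstream of the annotated starts are shown for 2 chains, for H2-Oa and for the DM beta gene with a row in the table. These 4 windows were chosen because each holds a match to letters of the X or Y box. The sequences are RefSeq's for GRCm38.p6, each with the 150 bases before the start, 5′ to 3′ on the gene's strand. Capitals mark the Y box core GATTGG, the X box stretch AACNGATG and the CREB-type site TGACGTCA, each searched on both strands. The X box letters were chosen after these windows had been seen.
H2-Aa (chr17:34287824-34287973, minus strand): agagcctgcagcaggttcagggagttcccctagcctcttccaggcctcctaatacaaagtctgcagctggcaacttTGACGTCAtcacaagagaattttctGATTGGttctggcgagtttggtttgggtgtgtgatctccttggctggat
H2-Eb1 (chr17:34305717-34305866, plus strand): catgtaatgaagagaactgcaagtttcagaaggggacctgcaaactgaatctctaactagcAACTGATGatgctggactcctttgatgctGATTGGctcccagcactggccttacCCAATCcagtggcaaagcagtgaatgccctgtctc
H2-Oa (chr17:34092229-34092378, plus strand): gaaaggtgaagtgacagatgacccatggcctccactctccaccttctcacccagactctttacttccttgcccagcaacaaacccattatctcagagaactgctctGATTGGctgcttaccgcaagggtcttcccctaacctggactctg
H2-DMb2 (chr17:34145099-34145248, plus strand): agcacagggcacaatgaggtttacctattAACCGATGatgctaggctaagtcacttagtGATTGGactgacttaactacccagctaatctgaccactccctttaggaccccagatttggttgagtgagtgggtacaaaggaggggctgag

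The Y box core began 49, 60, 44 and 91 bases before the starts of H2-Aa, H2-Eb1, H2-Oa and H2-DMb2. The 150 bases before either annotated start of H2-DMa, and those before the start of Ifi30, held none of the searched letters. In the wider window of 250 bases, H2-DMa held the Y box core from base 199 before its start 2. The X box stretch lay upstream of the Y box core in H2-Eb1, from base 89, and in H2-DMb2, from base 121. H2-Aa held the CREB-type site, from base 74, without a match to that stretch, and H2-Oa held neither. The marked stretches do not overlap. Of 32851 promoter windows of 250 bases in the same table, 14.6% held GATTGG on either strand, 1.98% held AACNGATG and 1.55% held TGACGTCA. Promoters were found for 6 of the 9 listed genes. A match is a description of these letters and not a measured binding site.

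Libraries held between 26946349 and 32709100 counts, so that counting error is small for every member and the spread between libraries sets the precision. The targeted gene Xbp1 measured 67.2, 48.7 and 76.8 CPM in WT and 32.5, 30.9 and 40.4 CPM in XBP1-KO, with no overlap (log2 fold change -0.89, edgeR adjusted p 0.0545, so not called), where CPM is the count scaled to a library of 1e+06 counts after TMM normalisation, as for all CPM here. The first principal component, with 33.5% of the variance, separated the genotypes, from -59.5 to 9.56 in WT against 15.8 to 37.5 in XBP1-KO. The second, with 22.2%, had WT b (38.3) and XBP1-KO b (30.1) at its positive end. The other 4 libraries ran from -45.0 to -0.99, with XBP1-KO a far out at the negative end. All 10 DC markers were detected (3 higher, 7 lower, none called, summed 2230 to 2714 CPM in WT, 1763 to 2389 in XBP1-KO), among them Zbtb46 at 8.66 ± 0.225 CPM in WT against 7.39 ± 0.680 CPM in XBP1-KO and Flt3 at 35.9 ± 12.6 and 32.5 ± 14.4 CPM (SD, n = 3). Itgax, which encodes CD11c, lay higher in all XBP1-KO libraries (133 to 161 CPM) than in WT (94.3 to 109 CPM, edgeR adjusted p 0.106). Of the 10 DC markers it was the 1 that lay entirely higher, and 2, Zbtb46 and Dpp4, lay entirely lower. Over all tested genes such separation was seen for 8.8% above and 10.4% below. The macrophage gene Lyz2 was far more abundant, at 15673 ± 5258 CPM in WT against 13882 ± 1730 CPM in XBP1-KO. The 11 macrophage markers summed to 14037 to 24560 CPM in WT against 17587 to 21411 in XBP1-KO, and of them only the mannose receptor Mrc1 was called, from 560 ± 30.8 CPM in WT to 330 ± 58.9 CPM in XBP1-KO (edgeR adjusted p 0.0455). None of 6 plasmacytoid DC markers was called (173 to 228 CPM in WT, 182 to 251 in XBP1-KO). Of all tested genes, 8959 of 15958 lay higher in XBP1-KO and 8.8% lay above without overlap. Calls were 0.157% higher and 0.288% lower. Sums of marker lists lay higher in XBP1-KO for B cells (190 to 363 CPM in WT, 383 to 543 in XBP1-KO, none of 10 genes called). They also did for neutrophils and mast cells (103 to 208 and 345 to 429 CPM), where 2 of 8 genes were called higher, the mast cell genes Cpa3 and Tpsb2. All 12 T and NK genes lay higher in XBP1-KO, 7 of them without overlap and 4 called, with a median log2 fold change of 1.30. The sums of the T and NK genes overlapped (720 to 1157 and 1083 to 1630 CPM), and Ccl5 alone gave 555 to 1331 CPM of them. Epithelial sums overlapped too (127 to 170 and 107 to 189 CPM, none of 8 called). The part of these cells in the results that follow was not tested.

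No class II member passed the test between the genotypes. Of the 8 tested members, 0 passed a threshold of 0.05 on the adjusted p of edgeR's quasi-likelihood model, where 0.445% of all tested genes did (71 of 15958, with 0.157% higher and 0.288% lower in XBP1-KO). Of the members only Ciita had an unadjusted p under 0.05, as did 2051 of the 15958 tested genes. DESeq2 and limma-voom also called none. In XBP1-KO 5 of the 8 lay lower and 3 higher, with a median log2 fold change of -0.18, while 6999 of 15958 tested genes lay lower with a median of 0.06. The 3 XBP1-KO libraries lay entirely below the 3 WT libraries for 1 of the 8 members, Ciita, and entirely above for none. Such separation was seen for 10.4% of tested genes below and 8.8% above, or 19.2% in either direction. In sorted bulk samples, fewer cells of a type and less RNA per cell cannot be told apart.

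**Figure D1:**
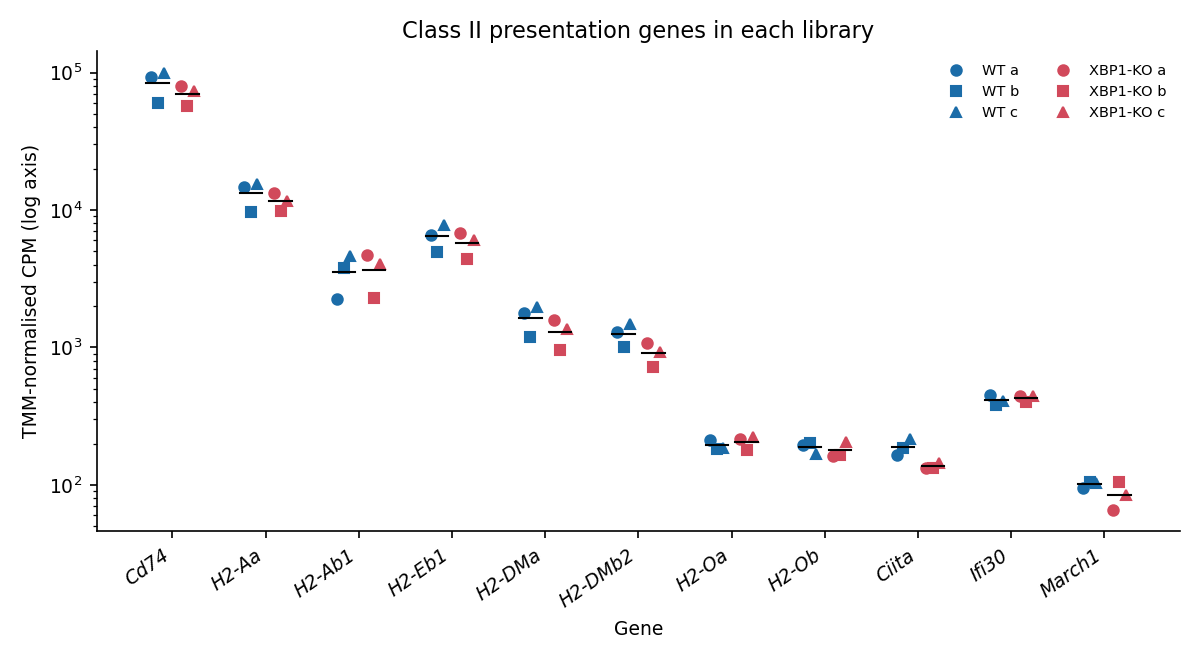
TMM-normalised CPM (log axis) of each class II gene in the 6 libraries, with blue symbols for WT, red for XBP1-KO, circles, squares and triangles for libraries a, b and c, and black bars for genotype means. Only Ciita has all 3 XBP1-KO points below all 3 WT points, and the squares of library b are low for Cd74, H2-Aa, H2-Eb1, H2-DMa and H2-DMb2 in both genotypes.

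The invariant chain was the dominant class II transcript. Cd74 stood at 93385, 59850 and 99893 CPM in the WT libraries a, b and c, against 80024, 56672 and 73005 CPM in the XBP1-KO libraries in that order. The genotypes overlapped, and library b was the lowest of each. The log2 fold change was -0.27 (SE 0.21, 95% interval -0.73 to 0.19, edgeR adjusted p 0.626). Together the 8 members took 11.4%, 8.40% and 11.96% of all counts in WT a, b and c, and 10.6%, 7.82% and 10.2% in XBP1-KO a, b and c. Since they hold this much of each library, totals were also recomputed without them. These totals set the scale in place of TMM factors. Cd74 was then at a log2 fold change of -0.20, H2-Ab1 at 0.12 and Ciita at -0.41, and no member was called. With the full library size alone, also without TMM, Cd74 was at -0.18, H2-Ab1 at 0.13 and Ciita at -0.39. Leaving the members out of the totals thus moved these values little.

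H2-Aa encodes the alpha chain of the I-A molecule. It measured 14610, 9593 and 15567 CPM in WT against 13356, 9752 and 11648 CPM in XBP1-KO. The ranges overlapped, with a log2 fold change of -0.19 (SE 0.20, 95% interval -0.62 to 0.23, edgeR adjusted p 0.708). H2-Eb1, the beta chain of the I-E molecule, ranked the libraries of each genotype as H2-Aa did, at 6631, 4978 and 7819 CPM in WT against 6838, 4417 and 6071 CPM in XBP1-KO. Its log2 fold change was -0.17 (SE 0.20, 95% interval -0.60 to 0.27, edgeR adjusted p 0.758). C57BL/6 mice carry a defective gene for the partner chain of H2-Eb1 and are known to lack I-E at the cell surface. The row of that partner, H2-Ea-ps, held 4, 9 and 5 counts in WT and 15, 7 and 21 in XBP1-KO, too few to enter the test.

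H2-Ab1, the beta chain that pairs with H2-Aa in I-A, did not rank the WT libraries as its partner did, although it ranked the XBP1-KO libraries in the same order. It measured 2258, 3760 and 4614 CPM in the WT libraries and 4703, 2288 and 4025 CPM in the XBP1-KO libraries, each in the order a, b, c. One library of each genotype, WT a and XBP1-KO b, thus lay at about the same low level while the other 4 lay between 3760 and 4703. The log2 fold change of 0.05 had the widest interval of the 8 members, -0.70 to 0.81 (SE 0.33, edgeR adjusted p 0.961). Leaving out WT a turned it to -0.19, leaving out XBP1-KO a to -0.17 and leaving out XBP1-KO c to -0.04, with adjusted p-values of 0.848, 0.917 and 0.981 in edgeR's test.

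**Figure D2:**
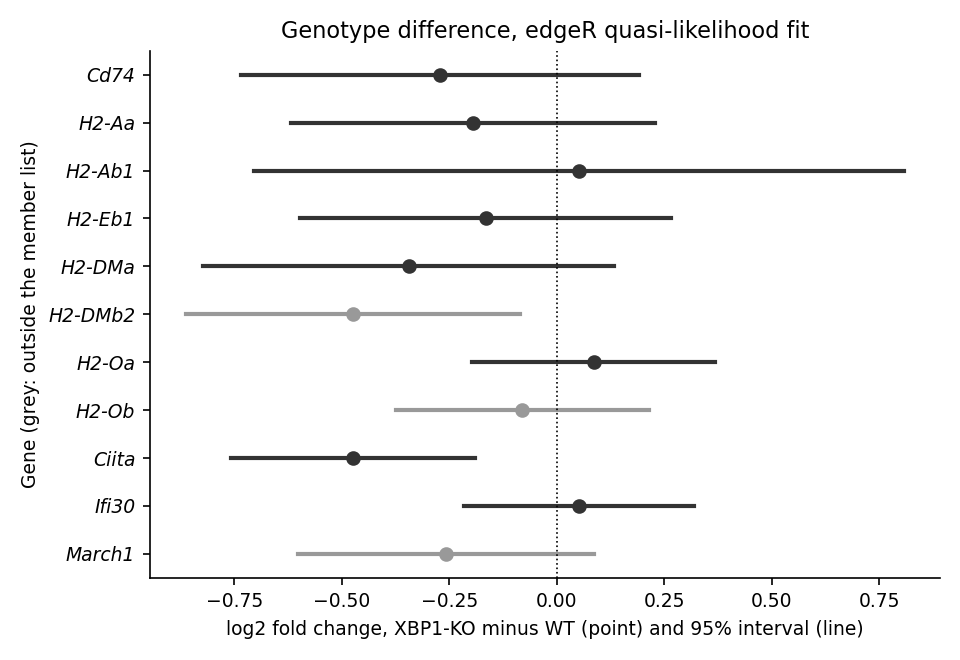
Log2 fold change of XBP1-KO minus WT (points) with 95% intervals from the edgeR fit (lines, n = 3 per genotype), for members in black and other class II genes in grey. The intervals of Ciita and H2-DMb2 lie below 0 before adjustment over all genes, and that of H2-Ab1 is the widest.

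Ratios within a library need no scaling factor and show which members kept step. Against H2-Aa, Cd74 held a nearly fixed proportion: 6.39, 6.24 and 6.42 counts per H2-Aa count in WT and 5.99, 5.81 and 6.27 in XBP1-KO. H2-Eb1 varied a little more, at 0.454, 0.519 and 0.502 in WT and 0.512, 0.453 and 0.521 in XBP1-KO. H2-Ab1 varied far more, with 0.155, 0.392 and 0.296 counts per H2-Aa count in WT and 0.352, 0.235 and 0.346 in XBP1-KO. On the log2 scale the SD over the WT libraries was 0.02 for Cd74, 0.10 for H2-Eb1 and 0.69 for H2-Ab1. None of the 7 main ratios passed between genotypes, with exact two-sided permutation p-values from 0.2 to 0.7 (0.7 for each after Benjamini-Hochberg adjustment). With 3 against 3 libraries this test cannot go below 0.1. The log2 ratio of H2-Ab1 to H2-Aa was -1.93 ± 0.69 in WT and -1.71 ± 0.33 in XBP1-KO (SD, n = 3), and without WT a the difference changed sign, from 0.22 to -0.16. The ratios of Cd74, H2-Eb1 and H2-DMa to H2-Aa were chosen after the values of H2-Ab1 were seen.

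**Figure D3:**
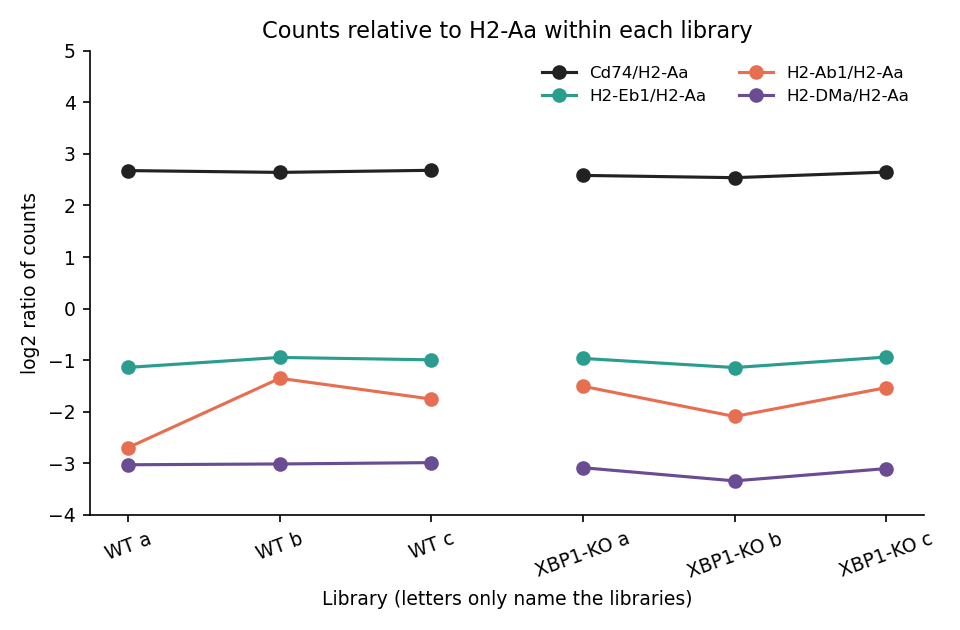
Log2 ratio of the counts of Cd74, H2-Eb1, H2-Ab1 and H2-DMa to those of H2-Aa in each library, with lines joining libraries of 1 genotype only to guide the eye. The trace of Cd74 is nearly flat, H2-DMa dips in XBP1-KO b, and H2-Ab1 drops in WT a and XBP1-KO b.

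H2-DMa is the alpha chain of DM, the editor that removes the CD74 fragment. It measured 1791, 1189 and 1964 CPM in WT against 1574, 963 and 1356 CPM in XBP1-KO. The genotypes overlapped at a log2 fold change of -0.34 (SE 0.22, 95% interval -0.82 to 0.13, edgeR adjusted p 0.546). Relative to H2-Aa it was 0.123, 0.124 and 0.126 in WT and 0.118, 0.0987 and 0.116 in XBP1-KO. These ratios did not overlap, which is the extreme arrangement of 6 libraries, with an exact permutation p of 0.1 (0.6 adjusted over all 14 ratios computed). The exons of H2-DMa share 360 of 3448 bases with Brd2 on the other strand in the GENCODE annotation, and the sources used here do not say whether counting used strand.

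The DM beta chain was read from H2-DMb2, a gene outside the list. It measured 1291, 999 and 1486 CPM in WT against 1076, 720 and 923 CPM in XBP1-KO. Library WT b at 999 CPM lay below XBP1-KO a at 1076 CPM, so the genotypes overlapped. The log2 fold change was -0.47 (SE 0.18) at an unadjusted p of 0.0208 (edgeR adjusted p 0.281). The transcripts of H2-DMb1 and H2-DMb2 are 94.4% identical over 1255 aligned bases, with an unbroken identical run of 221 bases, so the row may include reads of both genes and is uncertain. Its counts were 0.681 to 0.841 of those of H2-DMa over the 6 libraries.

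H2-Oa is the alpha chain of DO, the inhibitor of DM known from B cells and some DCs. It stayed within a narrow range, at 212, 183 and 187 CPM in WT against 216, 179 and 223 CPM in XBP1-KO. Its log2 fold change was 0.09 (SE 0.13, 95% interval -0.20 to 0.37, edgeR adjusted p 0.815). H2-Ob, the DO beta chain, measured 195, 202 and 169 CPM in WT against 163, 166 and 207 CPM in XBP1-KO (edgeR adjusted p 0.840). Both DO genes overlapped between the genotypes. The B cell gene Cd79a stood at 66.3, 25.3 and 47.0 CPM in WT and at 97.8, 83.5 and 126 CPM in XBP1-KO (edgeR adjusted p 0.228), all above WT, and its cells also express DO. The part of B cells in the DO levels was not tested. The log2 ratio of H2-Oa to H2-DMa was -3.06 ± 0.35 in WT and -2.63 ± 0.22 in XBP1-KO (SD, n = 3), with an exact permutation p of 0.2.

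Ciita was the member with the smallest p. It measured 166, 184 and 217 CPM in WT against 133, 132 and 143 CPM in XBP1-KO, so that every XBP1-KO library lay below every WT library and the XBP1-KO libraries were close together. The mean was 189 ± 26.0 CPM in WT against 136 ± 6.33 CPM in XBP1-KO (SD, n = 3). The log2 fold change was -0.47 (SE 0.13, 95% interval -0.76 to -0.19), at an unadjusted p of 0.00323 (edgeR adjusted p 0.131), which did not pass. Over 18 alternative fits it kept its sign, between -0.56 and -0.37, and the adjusted p lay between 0.0621 (DESeq2) and 0.519 (without WT c). Without WT b and XBP1-KO b it was -0.49 (edgeR adjusted p 0.162). Among the chains and Cd74, which CIITA is known to drive, 3 of 4 lay lower without passing and all 4 overlapped. Ciita is known to use different first exons in different cell types, which a gene-level count cannot resolve. The gene shares 329 of 9535 exon bases with Dexi on the other strand.

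Ifi30, also called GILT, reduces disulfide bonds of antigens in lysosomes. It varied little, at 454, 384 and 406 CPM in WT against 440, 404 and 446 CPM in XBP1-KO. Its log2 fold change was 0.05 (SE 0.12, 95% interval -0.22 to 0.32, edgeR adjusted p 0.890).

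Per kilobase of transcript, the members and H2-DMb2 and H2-Ob stood in the same order of mean level in both genotypes. Cd74 led with 59841 ± 15240 CPM per kilobase in WT, followed by H2-Aa with 11752 ± 2844, H2-Eb1 with 3880 ± 855 and H2-Ab1 with 2924 ± 984 (SD, n = 3). The SD ranges of H2-Eb1 and H2-Ab1 overlapped, as did those of H2-DMa with 994 ± 245 and H2-DMb2 with 884 ± 172 CPM per kilobase. These SDs are between libraries and ignore that both genes of a pair were read in the same libraries. They therefore do not decide whether the genes of a pair differ within a library. Below the DM genes came Ifi30 with 423 ± 36.2, H2-Oa with 178 ± 14.5, H2-Ob with 70.6 ± 6.54 and Ciita with 31.5 ± 4.33 CPM per kilobase. In XBP1-KO the corresponding levels were 49575 ± 8498 for Cd74, 10271 ± 1598 for H2-Aa and 22.7 ± 1.05 CPM per kilobase for Ciita. The chains H2-Aa and H2-Ab1, which pair in the I-A protein, thus stood apart in counted level in each genotype, with H2-Ab1 at 3030 ± 1028 CPM per kilobase in XBP1-KO. Lengths are those of the longest GENCODE transcript paired with RefSeq (for Ifi30, which has no such pair, the longest transcript), whose build is not that of the counts, so the order holds for these lengths only.

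Several members varied between libraries of a genotype in step. The highest WT library held 1.67 times the lowest for Cd74, 1.62 times for H2-Aa, 1.57 times for H2-Eb1 and 1.65 times for H2-DMa. Library b was the lowest of its genotype in both WT and XBP1-KO for 6 of 8 members (Cd74, H2-Aa, H2-Eb1, H2-DMa, H2-Oa and Ifi30), as it was for 17.1% of all tested genes. In WT, library b held 0.619 of the mean of libraries a and c for Cd74, 0.636 for H2-Aa, 0.689 for H2-Eb1 and 0.633 for H2-DMa. In XBP1-KO it held 0.741, 0.780, 0.684 and 0.657 in the same order. Ciita did not share this pattern, with 0.964 in WT and 0.954 in XBP1-KO, and neither did Ifi30 to that degree, with 0.893 and 0.911.

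Some markers of DC subsets were high or low in library b of both genotypes, and others were not. Xcr1, the chemokine receptor of cross-presenting cDC1, had 69.4, 171 and 66.8 CPM in WT against 21.6, 115 and 62.1 CPM in XBP1-KO, highest in library b of each, as was the case for 18.9% of all tested genes. Clec9a, another cDC1 receptor, was also highest there, with 36.6 CPM in WT b and 21.6 CPM in XBP1-KO b. Cd209a, a lectin of monocyte-derived and cDC2-type cells, went the other way, with 1955, 1272 and 1669 CPM in WT against 1481, 1025 and 1628 CPM in XBP1-KO. Batf3, a transcription factor of cDC1, did not follow Xcr1, with 25.9, 33.3 and 38.5 CPM in WT against 45.6, 20.9 and 38.0 CPM in XBP1-KO. Dpp4 was highest in WT b, at 242 CPM, and lowest in XBP1-KO b, at 142 CPM. Lyz2 was also lowest in WT b, at 9614 CPM against 18366 and 19039 in WT a and c, but not in XBP1-KO b. The part of these cell types in the class II levels was not tested. WT b and XBP1-KO b were the lowest libraries of their genotype for Cd74, H2-Aa, H2-Eb1 and H2-DMa. Leaving them out therefore narrows the range within each genotype by construction. Without WT b and XBP1-KO b the log2 fold changes were -0.36 for Cd74, -0.29 for H2-Aa, -0.18 for H2-Eb1 and -0.38 for H2-DMa. Their adjusted p-values in edgeR's test were then 0.124, 0.208, 0.473 and 0.144, so none passed. With only WT b left out, Cd74 reached -0.49 and H2-DMa -0.56. In that edgeR fit 4 members had an unadjusted p under 0.05, as did 2456 of all genes, and no member was called. Leaving out XBP1-KO a or XBP1-KO c also moved the values of these 4 genes away from 0, for Cd74 to -0.38 and -0.33. Leaving out WT a, WT c or XBP1-KO b moved the values towards 0. Without WT c they were -0.14 for Cd74, -0.07 for H2-Aa, -0.010 for H2-Eb1 and -0.20 for H2-DMa, and without XBP1-KO b they were -0.16, -0.10, -0.02 and -0.19 in the same order.

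**Figure D4:**
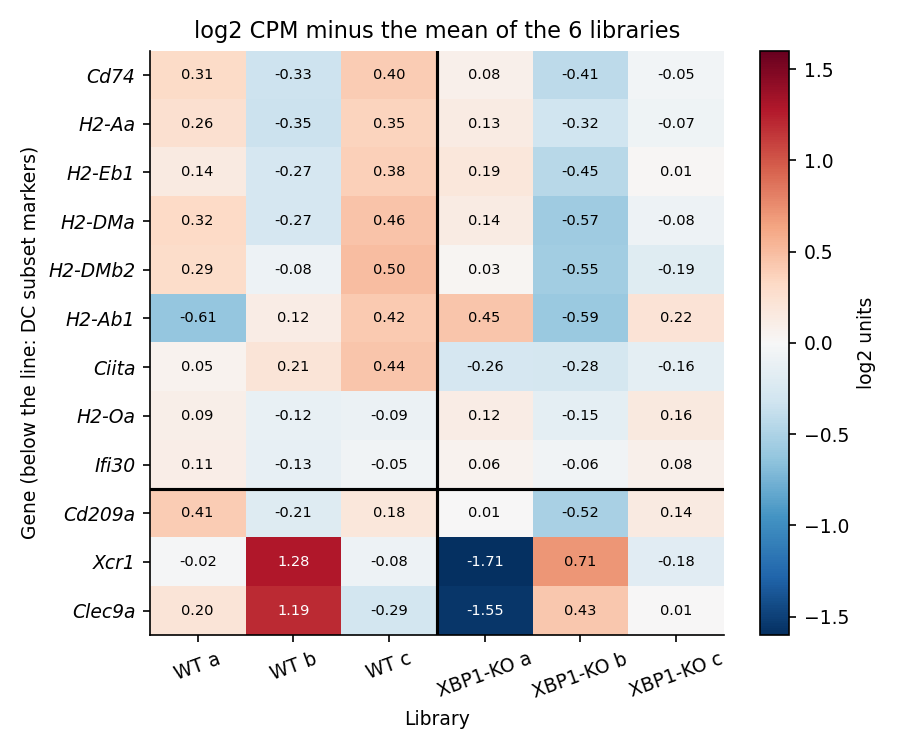
Log2 CPM of each gene (rows) in each library (columns) minus its mean over the 6 libraries, with class II genes above the horizontal line and DC subset markers below it. Cd74, H2-Aa, H2-Eb1 and H2-DMa are below their mean in WT b and XBP1-KO b, where Xcr1 and Clec9a are above theirs and Cd209a is below.

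Of 5 other tested class II genes, 4 lay lower, 1 higher and none was called, with a median log2 fold change of -0.21. March1, a ubiquitin ligase that sends surface class II to degradation, measured 94.9, 106 and 103 CPM in WT against 66.2, 104 and 84.0 CPM in XBP1-KO (edgeR adjusted p 0.532). Of 10 genes of the X and Y box factors and their coactivators, 5 lay lower, 5 higher and none was called. Creb1, which binds the X2 part of the X box, measured 81.3 ± 11.8 CPM in WT against 59.5 ± 2.35 CPM in XBP1-KO (adjusted p of 0.175), and the coactivator Crebbp 68.4 ± 4.03 and 49.9 ± 10.6 CPM (0.250). Rfx5, a subunit of the RFX complex on the X box, had 6.87 ± 1.41 CPM in WT against 7.82 ± 1.17 CPM in XBP1-KO. The XBP1-KO libraries lay below the WT libraries for 3 of these 10 genes and above for none, where 10.4% of all tested genes lay below.

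Of 11 tested genes known to act upstream of Ciita, such as receptors of interferon gamma, 8 lay lower, 3 lay higher and none was called. The lowest p-values were those of Usf1, a factor of the inducible Ciita promoter, with 73.0 ± 4.60 CPM in WT against 57.2 ± 2.13 CPM in XBP1-KO (edgeR adjusted p 0.252), and of Ifngr1, a receptor chain of interferon gamma, with 593 ± 45.2 and 504 ± 7.48 CPM (0.453).

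Among 10 genes of invariant chain and antigen proteolysis, 7 lay lower, 3 higher and none passed. Ctss, the protease best known for the last cuts of CD74 in DCs, stood at 3663 ± 682 CPM in WT against 3449 ± 263 CPM in XBP1-KO. Cstb, an inhibitor of cathepsins, had 230 ± 30.0 CPM in WT against 288 ± 33.9 CPM in XBP1-KO (edgeR adjusted p 0.355). The intramembrane protease gene Sppl2a, listed in the table under the older symbol 2010106G01Rik, had 184 ± 25.8 and 149 ± 11.5 CPM (0.364). The other arm of presentation, MHC class I with 14 tested genes, also had no call, where 0.445% of all tested genes were called. Of the 14, 8 lay lower and 6 higher, with a median log2 fold change of -0.003. The XBP1-KO libraries lay entirely below the WT libraries for 3 of them and above for none. Over all tested genes 10.4% lay below and 8.8% above. Tapbp and Erap1 had the smallest p of the class I genes, with edgeR adjusted values of 0.174 and 0.175.

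By Pearson correlation of log2 CPM over the 6 libraries, the genes most like the mean of Cd74, H2-Aa, H2-Ab1 and H2-Eb1 were Pygo2 (0.984), Il6st (0.980), Tbc1d17 (0.974), Upb1 (0.974) and Rab2b (0.972). Those most like Ciita were Fasn (0.998), Zfp707 (0.996), Stx5a (0.992), Gdap2 (0.991) and Syne2 (0.985). They were the top of 9698 genes with a mean of at least 5 CPM. All points share 6 libraries with their depth and cell makeup, and high values can be found among so many genes, so these are descriptions only.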

How the data were processed

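RNA-seq of sorted DCs gave 2 deposited tables. The first holds raw counts per gene symbol as deposited by the authors. RSEM, edgeR and the build mm9 are named, per the submitters' processing notes, without versions or roles. The second holds CPM values of the authors, equal within 5.09e-11 to the deposited counts scaled to 1e+06 per library, for the 13946 genes above 1 CPM in at least 2 libraries. No column was left out.

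Counts were tested in edgeR 4.0.16 (R 4.3.3): filterByExpr, TMM factors, a quasi-likelihood fit with robust estimation and genotype as the only term, two-sided, with Benjamini-Hochberg adjustment over 15958 genes and a call under 0.05. Standard errors are the fold change over the square root of F, and 95% intervals use that error. The test was checked on simulated data of 3 against 3 libraries, with 100 genes changed 2-fold and 100 changed 4-fold. It recovered 77% and 100% of them, with 14 false calls. Smaller changes, such as those of the members, were not simulated. Alternatives were DESeq2 1.42.0, limma-voom (limma 3.58.1), other scalings and filters, deposited CPM on log2(value + 1) and log2(value + 0.1), and libraries left out. All members are named; of each other list, called genes or the 2 smallest p, plus March1, H2-DMb2, H2-Ob and H2-Ea by role; Rfx5, Ctss and the cell markers were picked after their values were seen. Per-kilobase levels used GENCODE transcripts paired with RefSeq. Members and lists were chosen with earlier results of these data known. Symbols were matched through RefSeq GRCm38 names (4 older symbols).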

Additional observations from a re-analysis of the deposited data

How the results depend on the processing

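No class II member was called in any of the 18 alternative fits, including DESeq2, limma-voom, 4 other scalings, 2 other filters and each library left out. Cd74, H2-Aa, H2-Eb1, H2-DMa, H2-DMb2 and Ciita kept their negative sign and H2-Oa its positive sign in all of them, but some came close to 0. With 1 library left out, Cd74 ran from -0.49 to -0.14, H2-Aa from -0.41 to -0.07, H2-Eb1 from -0.35 to -0.010 and H2-DMa from -0.56 to -0.19. H2-Oa ran from 0.0038 (XBP1-KO c) to 0.16 (XBP1-KO b). H2-Ab1 ran from -0.19 (WT a) to 0.29 (WT c), also negative without XBP1-KO a (-0.17) and without XBP1-KO c (-0.04); Ifi30 ran from -0.027 (WT b) to 0.12 (WT a). H2-Ob turned to 0.0056 without the pair WT b and XBP1-KO b. Of the 7 main log2 ratio differences, 3 turned without WT a and were at the other end without WT b: -0.16 to 0.51 for H2-Ab1 to H2-Aa, 0.11 to -0.46 for H2-Eb1 to H2-Ab1 and 0.086 to -0.60 for Cd74 to H2-Ab1. The other 4 kept their sign; H2-DMa to H2-Ab1 came to -0.02 without WT a, and Ciita to H2-Ab1 ran from -0.80 (XBP1-KO b) to -0.29 (XBP1-KO a).

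The number of changed genes among all genes depended on the fit: 71 (25 higher, 46 lower) as tested, 465 (110 higher, 355 lower) with DESeq2, 47 with limma-voom, 252 (61 and 191) with no filter on low counts, 92 with a filter of 1 CPM in 2 libraries, 45 without robust estimation, 25 (13 higher, 12 lower) with library size alone, 32 (16 and 16) with library size without the members, 50 (23 and 27) with upper quartile scaling, and 25 (13 and 12) and 13 (12 and 1) with deposited CPM on log2(value + 1) and log2(value + 0.1). Leaving out 1 library gave 38, 40 and 5 for the WT libraries a, b and c, and 13, 154 and 16 for those of XBP1-KO in the same order, of which 15 were higher and 1 lower without XBP1-KO c. The cause was not tested. No paired analysis was possible because the columns carry no replicate number. Depth limits no member, since the smallest count was 3635 (Ciita in XBP1-KO a), and H2-Ea-ps is limited by its few counts.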
